A study of Mus musculus and Rattus norvegicus with 30 samples.

Results

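The transcripts described here encode 9 regulators of mitochondrial biogenesis, matched by gene name. The list of 9 was chosen with earlier results of these data known. They are the PGC-1 coactivators (Ppargc1a, Ppargc1b and Pprc1), the muscle regulator Perm1, the corepressors Nrip1 and Ncor1, the transcription factors Nrf1 and Gabpa, and the mitochondrial transcription factor Tfam. All 9 were found among the 32545 genes of the rat table and among the 54307 genes of the mouse tables, where they are represented by 83 transcripts. All 9 also passed the filter on low counts in both species, and each had counts in every library.

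Poly(A) RNA was sequenced from cultured rat heart muscle cells and from mouse left ventricle, and both were exposed to agonists of the estrogen-related receptors (ERR). The rat cells were NRVM, neonatal ventricular myocytes isolated from pups 3 days old. They were transfected with 25 nM siRNA against ERRalpha and ERRgamma together (knockdown) or with scramble siRNA, then given 10 µM of 915, a pan-ERR agonist, or DMSO vehicle for 24 hours. Before seeding, fibroblasts were depleted by attachment to plastic, and the knockdown lowers the receptors without deleting their genes. The 4 rat groups held 3 libraries each: scramble with vehicle, scramble with 915, knockdown with vehicle and knockdown with 915. The mice were wild type and had transverse aortic constriction (TAC), which narrows the aorta and overloads the heart with pressure, or sham surgery. They then received intraperitoneal 332, another ERR agonist, or vehicle, for 6 weeks. The mouse groups held 3 sham hearts on vehicle, 5 sham hearts on 332, 5 TAC hearts on vehicle and 5 TAC hearts on 332. The agonists 915 and 332 were given to different species for different times, so they are not compared. Age and sex of the mice are not in the labels used here. The labels do not say whether libraries within a group stem from different isolations or animals, so p-values measure the spread between these libraries, which may be technical.

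PGC-1alpha (Ppargc1a) and PGC-1beta (Ppargc1b) have no DNA-binding domain of their own. They are recruited by nuclear receptors such as the ERRs and by the nuclear respiratory factors NRF1 and GABP, and so raise transcription of nuclear genes for mitochondrial proteins. One such gene is Tfam, whose product enters mitochondria, packages their DNA and starts its transcription. Perm1 is a striated-muscle gene that PGC-1 and the ERRs induce. Nrip1 (RIP140) and Ncor1 are corepressors that nuclear receptors recruit, and both oppose oxidative gene programmes in muscle. Heart muscle depends on oxidative metabolism and expresses all of these genes.

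The stretch upstream of mouse Perm1 is shown because Perm1 changed most with the receptors, and because the core of the site that ERRs bind occurs in it. RefSeq promoter windows (GRCm38.p6) were matched by symbol for 8 of the 9 genes, in 11 windows, and 250 bases before each start were searched on both strands. Ppargc1b had no window and was not searched, so nothing is said of its promoter. The letters AAGGTCA occurred once in the Perm1 window, on the strand opposite to the gene, and in no other of these 11 windows. They occurred in 4.08% of all 32851 windows of this length. The longer TNAAGGTCA, which contains AAGGTCA, occurred in none of the 11 windows of the 8 genes and in 1.14% of all windows. Capitals mark the match, which lies 202 to 196 bases before the RefSeq start, in the sequence before the annotated exon:
Perm1 (GRCm38.p6, chr4:156215677-156215867, + strand): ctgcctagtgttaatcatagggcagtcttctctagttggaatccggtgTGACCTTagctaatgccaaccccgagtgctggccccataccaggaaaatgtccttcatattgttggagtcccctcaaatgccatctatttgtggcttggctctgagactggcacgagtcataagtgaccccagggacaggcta
The core of the site of GABP and other ETS factors, CCGGAAG, occurred once each in the windows of Tfam, Gabpa and Ncor1, against 6.91% of all windows. The NRF1 core GCGCATGC occurred in none of the 11 windows of the 8 genes and in 2.26% of all. A match of letters is a description and not a site shown to be bound, and the windows are of mouse, whereas the receptors were lowered in rat cells.

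The depth was 12013379 to 18315341 counts for a rat library and 11375894 to 16599899 estimated counts for a mouse library. Levels are given below as CPM, on library sizes adjusted by TMM factors, and changes as log2 changes with their standard error (SE) from the quasi-likelihood test of edgeR. A gene was called, and is said to have risen or fallen, where its p adjusted over all genes tested by the Benjamini-Hochberg method was under 0.05. The median log2 change of all genes lay between -0.005 and 0.028 in the 10 comparisons. The knockdown reached its targets in every library. With vehicle, Esrra was at 169 to 199 CPM after scramble siRNA and at 14.0 to 21.9 CPM after knockdown. Esrrg was at 130 to 131 CPM and at 17.5 to 18.7 CPM. The third receptor gene, Esrrb, was not targeted but was lower as well, at low levels. It was at 3.01 to 4.43 CPM after scramble siRNA and at 0.665 to 1.19 CPM after knockdown with vehicle. With 915 it was at 5.68 to 6.97 CPM and at 1.49 to 1.78 CPM. The part of Esrrb in the results below was not tested. Mouse libraries fell into 2 sets by the lane in their file names: replicates 1 to 3 stood in lane 3 or 4 and replicates 4 and 5 in lane 1. The labels do not state a sequencing run, and these sets of lanes are called the first and second run here only as a working name. All sham vehicle hearts belonged to the first run, and the 3 sham 332 hearts of the first run were alone in lane 3. Markers of fat differed between the runs: Adipoq was at most 0.0896 CPM in the 12 libraries of the first run and 5.09 to 9.40 CPM in the 6 of the second. Plin1 (at most 0.122 against 1.57 to 2.16 CPM) and Cfd (at most 0.734 against 5.93 to 9.72 CPM) were split likewise, and Cidea lay at 15.7 to 26.2 and at 23.8 to 34.1 CPM.

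Compared per transcript length, with the authors' FPKM, the 9 genes spanned less than an order of magnitude in scramble vehicle myocytes. Tfam stood highest at 30.4 ± 1.2 FPKM (SD, n = 3), followed by Perm1 at 26.6 ± 0.27 FPKM. Pprc1 at 23.7 ± 1.0 FPKM and Ncor1 at 23.1 ± 0.85 FPKM came next, and their libraries overlapped. Ppargc1b stood at 16.5 ± 0.80 FPKM, above Ppargc1a at 8.46 ± 0.88 FPKM. Gabpa was at 9.38 ± 0.26 FPKM and Nrf1 at 8.03 ± 0.29 FPKM, and Ppargc1a and Nrf1 overlapped. Nrip1 was lowest at 4.05 ± 0.38 FPKM. Perm1 took the first and the last place of this order in other groups. It was first of 9 with 915 at 50.6 ± 4.5 FPKM and last in knockdown vehicle cells at 2.07 ± 0.16 FPKM.

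In mouse left ventricle Ppargc1a, not Ppargc1b, was the more abundant of the pair per length. By the deposited TPM summed per gene, sham vehicle hearts had Ncor1 at 23.9 ± 4.6 TPM (SD, n = 3), Perm1 at 23.7 ± 0.45 TPM, whose ranges overlapped, and Tfam at 13.8 ± 4.0 TPM. Ppargc1a followed at 6.91 ± 1.1 TPM and Gabpa at 6.06 ± 0.71 TPM, which overlapped. Ppargc1b at 1.42 ± 0.24 TPM, Pprc1 at 1.36 ± 0.24 TPM and Nrf1 at 1.12 ± 0.16 TPM overlapped as well, and Nrip1, at 0.841 ± 0.15 TPM, overlapped only Nrf1. In scramble vehicle myocytes the order of this pair was the opposite, on the FPKM scale, and the scales were not compared. TPM was compared only between genes of the same libraries, since the single mitochondrial mRNA mt-Atp8 took 21.3% to 32.9% of it in the first run and 15.0% to 16.7% in the second. The TPM levels of Tfam, Ncor1, Gabpa and Pprc1 rest largely or in part on short transcripts. Transcripts of 800 bases or less gave 93.2% of the summed TPM of Tfam in sham vehicle hearts, from 31.7% of its estimated counts. For Ncor1 they gave 74.3% of the TPM from 14.1% of the counts, for Gabpa 66.3% from 6.39% and for Pprc1 40.2% from 2.03%. Without them Ncor1 would stand at 6.16 TPM, Gabpa at 2.04 TPM and Tfam at 0.933 TPM, and Perm1, which has 1 transcript, stays at 23.7 TPM. Pprc1 would stand at 0.816 TPM, below Nrip1 at 0.841 TPM.

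**Figure D1:**
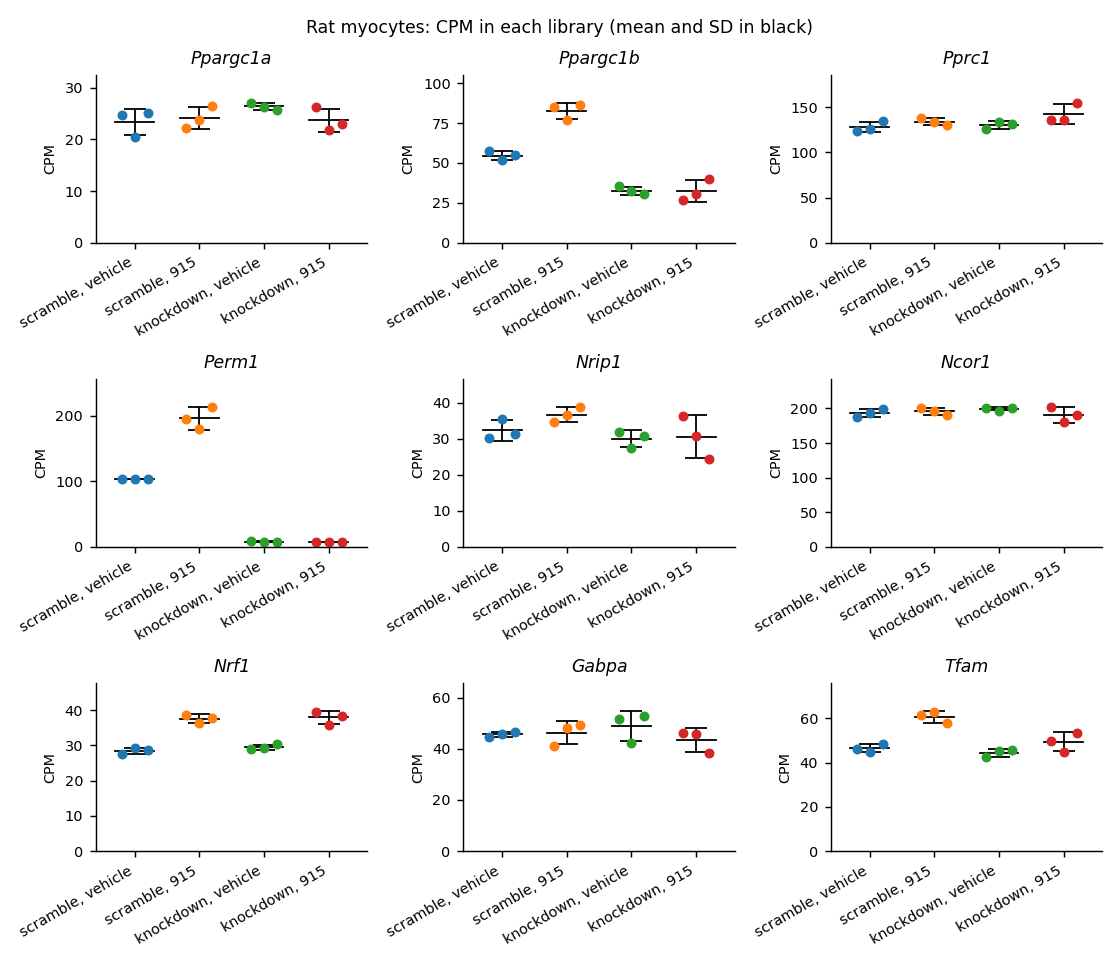
Rat myocytes: each point is 1 library, the y axis is CPM from 0, and black bars give the mean and SD of the 3 libraries of a group. Perm1 falls from about 103 CPM in scramble vehicle cells to under 9 CPM in both knockdown groups, and Ppargc1b keeps the same order of groups over a smaller range.

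The knockdown of ERRalpha and ERRgamma lowered 2 of the 9 genes in vehicle-treated myocytes, Perm1 and Ppargc1b, and raised none. Of all genes tested, 12.7% fell and 7.75% rose in this comparison. The median log2 change of the 9 genes was 0.025, beside 0.008 for all 15181 genes. Under 915 the knockdown lowered 3 of the 9 genes, Perm1, Ppargc1b and Tfam, and raised none, where 17.7% of all genes fell and 16.2% rose. Their median under 915 was -0.094, beside 0.028 for all genes.

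Perm1 (ENSRNOG00000020244, rn6 chromosome 5, 173640780 to 173646073, + strand) encodes a muscle protein that amplifies PGC-1 and ERR target transcription. It stood at 103, 104 and 104 CPM in scramble vehicle cells and at 8.69, 7.98 and 7.48 CPM in knockdown vehicle cells. The agonist groups had 195, 179 and 214 CPM after scramble siRNA, and 7.71, 7.80 and 8.12 CPM after knockdown. The scramble groups overlapped neither each other nor the knockdown groups, and the knockdown groups overlapped each other. The knockdown changed Perm1 by -3.68 (SE 0.079, adjusted p = 5.35e-21) in vehicle, a 12.8-fold fall. Under 915 the change was -4.64 (SE 0.081, adjusted p = 4.03e-23), a 24.9-fold fall. The agonist changed it by 0.92 (SE 0.062, adjusted p = 1.27e-11) in scramble cells, a 1.89-fold rise. In knockdown cells the fitted value was -0.03 (SE 0.10, adjusted p = 0.847). The difference of both 915 effects, knockdown minus scramble, was -0.95 (SE 0.12, adjusted p = 2.31e-05). After knockdown all 6 libraries lay within 7.48 to 8.69 CPM, with or without 915.

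Ppargc1b (ENSRNOG00000017503, rn6 chromosome 18, 56626712 to 56728968, - strand) followed the same order of groups with a smaller span. Its values were 57.5, 51.6 and 54.9 CPM in scramble vehicle cells and 85.1, 76.8 and 86.3 CPM with 915. In knockdown cells they were 35.3, 32.4 and 30.3 CPM with vehicle and 26.9, 30.5 and 40.0 CPM with 915. The scramble groups overlapped no other group, and the knockdown groups overlapped each other. The knockdown changed Ppargc1b by -0.74 (SE 0.11, adjusted p = 6.27e-05) in vehicle and by -1.35 (SE 0.11, adjusted p = 2.9e-08) under 915. The agonist changed it by 0.60 (SE 0.10, adjusted p = 0.000159) in scramble cells, and the fitted value in knockdown cells was -0.004 (SE 0.11, adjusted p = 0.983). The difference of these effects was -0.60 (SE 0.15, adjusted p = 0.0371). It lost its call in 8 of the 12 fits that left out 1 library, with values of -0.643 to -0.545 and adjusted p up to 0.116 among those 8.

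Ppargc1a, the coactivator best known for inducing mitochondrial biogenesis, passed no test in the rat cells. Its 12 libraries lay between 20.5 and 27.1 CPM. Scramble vehicle cells had 24.7, 20.5 and 25.0 CPM and knockdown vehicle cells 27.1, 26.3 and 25.7 CPM, so that these 2 groups did not overlap. The log2 difference was 0.17 (SE 0.10, adjusted p = 0.257). The agonist effect was 0.04 (SE 0.10, adjusted p = 0.771) in scramble cells and -0.16 (SE 0.10, adjusted p = 0.23) in knockdown cells. Pprc1, the PGC-1-related coactivator that growth signals induce, lay between 124 and 155 CPM in all 12 libraries. Its knockdown cells with 915 were all above those with vehicle, by 0.13 (SE 0.056, adjusted p = 0.0767).

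The agonist raised 4 of the 9 genes in scramble cells, Perm1, Ppargc1b, Nrf1 and Tfam, and lowered none. In this comparison 21.5% of all genes rose and 20.6% fell, and the median of the 9 genes was 0.185 beside 0.007 for all genes. In knockdown cells 915 raised 1 of the 9, Nrf1, and lowered none, where 18.1% of all genes rose and 17.6% fell. The median there was -0.004, beside -0.001 for all genes. The 915 effects differed between knockdown and scramble cells at 2 of the 9 genes, Perm1 and Ppargc1b, both lower in knockdown cells. Of all genes, 1.99% were lower and 1.74% higher in that difference.

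Nrf1 (ENSRNOG00000008752) encodes a transcription factor for nuclear genes of the respiratory chain and of mitochondrial DNA transcription. It stood at 27.6, 29.2 and 28.8 CPM in scramble vehicle cells and at 38.7, 36.3 and 37.9 CPM with 915. Knockdown cells had 29.1, 29.2 and 30.4 CPM with vehicle and 39.6, 35.9 and 38.4 CPM with 915. All 6 libraries with 915 were above all 6 with vehicle. The 915 effect was 0.40 (SE 0.075, adjusted p = 0.000114) in scramble cells and 0.36 (SE 0.075, adjusted p = 0.000468) in knockdown cells. Their difference was -0.04 (SE 0.11, adjusted p = 0.898), and the knockdown effect in vehicle was 0.05 (SE 0.076, adjusted p = 0.708). With all libraries in the fit, Nrf1 was thus the 1 gene of the 9 that was called for 915 both with and without knockdown. Without the second knockdown 915 library, Tfam (0.225, adjusted p = 0.0245) and Pprc1 (0.165, adjusted p = 0.0424) were also called for 915 in knockdown cells.

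Tfam (ENSRNOG00000000613), the mitochondrial DNA packaging and transcription factor, stood at 46.3, 44.9 and 48.6 CPM in scramble vehicle cells and at 61.4, 63.0 and 57.9 CPM with 915. Knockdown cells had 42.4, 45.1 and 45.6 CPM with vehicle and 49.9, 45.0 and 53.5 CPM with 915. The scramble libraries with 915 were above all 9 others. The 915 effect was 0.38 (SE 0.071, adjusted p = 0.000101) in scramble cells and 0.16 (SE 0.072, adjusted p = 0.0969) in knockdown cells. The difference of these effects, -0.23 (SE 0.10), did not pass the test (adjusted p = 0.252). Under 915 the knockdown changed Tfam by -0.30 (SE 0.071, adjusted p = 0.00187), and in vehicle the value was -0.07 (SE 0.072, adjusted p = 0.564).

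Gabpa, the DNA-binding subunit of GABP, lay between 38.2 and 52.9 CPM in the 12 rat libraries and passed no test with all libraries in the fit. Without the second knockdown vehicle library, 915 changed Gabpa by -0.265 in knockdown cells (adjusted p = 0.0274). The corepressor Ncor1 lay between 180 and 202 CPM, and the knockdown and 915 effects on it were between -0.065 and 0.043 on the log2 scale. Nrip1 lay between 24.5 and 38.9 CPM. Its knockdown effect under 915 was -0.27 (SE 0.11, adjusted p = 0.0607), and without the first knockdown 915 library it was -0.428 (adjusted p = 0.00321).

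At an adjusted p under 0.05 the authors' deposited table holds the same genes of the 9 in the 3 comparisons it gives. In the authors' deposited table Perm1 changed by -3.68 with knockdown and by 0.911 with 915 in scramble cells. For Ppargc1b the authors' deposited table has -0.742 and 0.589, for Tfam 0.374 with 915 in scramble cells, and for Nrf1 0.392 in scramble and 0.362 in knockdown cells with 915.

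**Figure D2:**
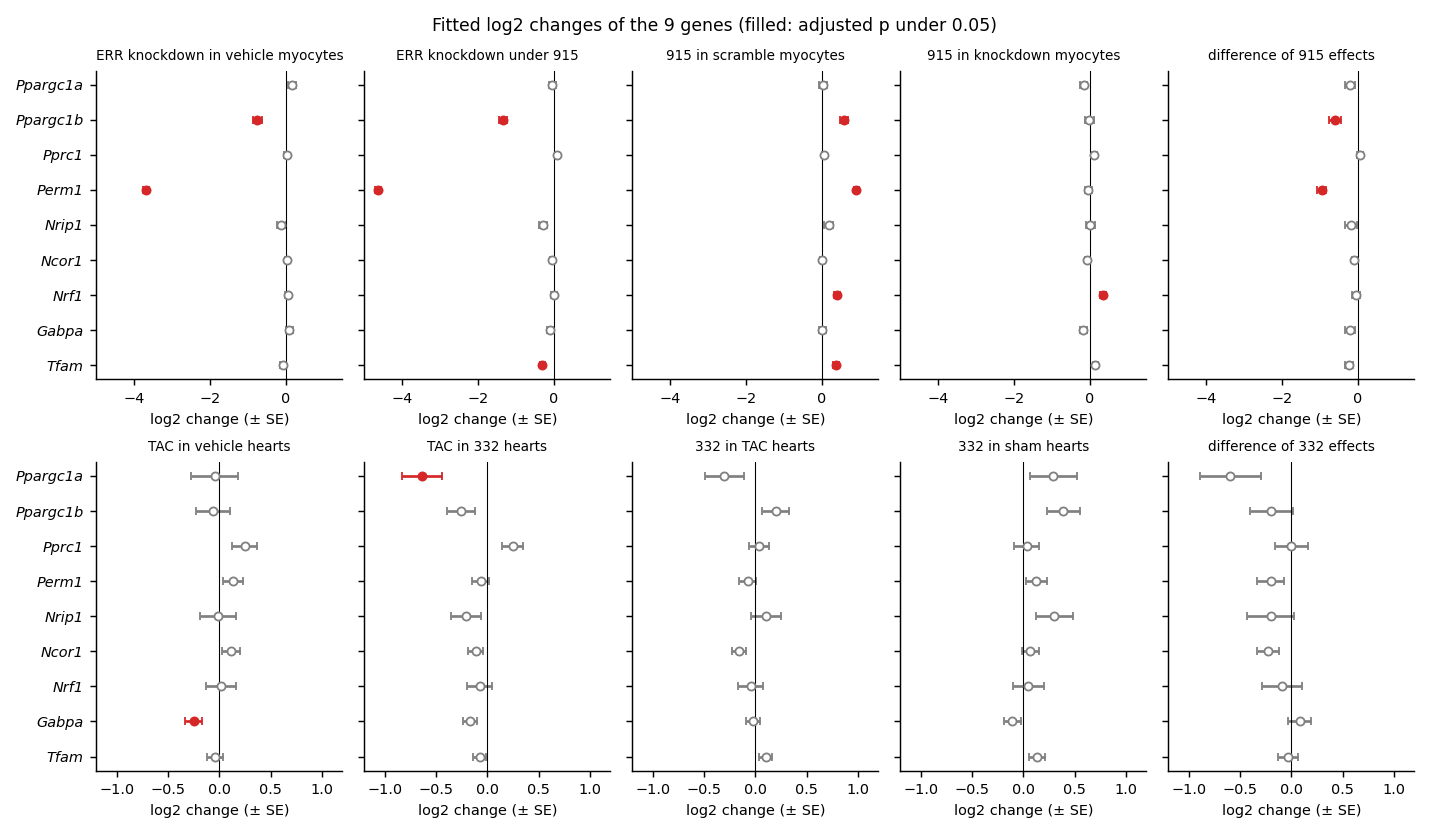
Fitted log2 changes of the 9 genes in the 5 rat comparisons (top row) and the 5 mouse comparisons (bottom row, narrower axis). Bars are 1 SE and filled red points are genes with an adjusted p under 0.05. Perm1 and Ppargc1b are called in 4 of the 5 rat comparisons each, and the mouse rows hold 1 called gene for TAC in vehicle hearts and 1 for TAC in 332 hearts.

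Receptor partners and target genes of these regulators were also called in these comparisons. Counts in the lists below stand beside the shares of all genes. With knockdown in vehicle 12.7% of all genes fell and 7.75% rose, and under 915 these shares were 17.7% and 16.2%. With 915 in scramble cells 21.5% rose and 20.6% fell, and in knockdown cells 18.1% rose and 17.6% fell. Among 21 listed partners of PGC-1, 9 fell and none rose with knockdown in vehicle (median log2 change -0.08). Esrra and Esrrg are among these 9, and their fall was set by the siRNA. Besides the targeted Esrra and Esrrg, Ppara, the fatty-acid-sensing receptor, changed by -1.41 (SE 0.12, adjusted p = 1.45e-09). With 915 in scramble cells 7 of 21 rose and none fell (median 0.06). Ppara rose by 0.96 (SE 0.11), Esrrg by 1.10 (SE 0.091) and the thyroid hormone receptor gene Thra by 0.33 (SE 0.058). In knockdown cells 1 of 21 rose with 915, Ppara at 0.62 (SE 0.12), while Mef2a and Mef2c fell.

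Genes for transcription and replication of mitochondrial DNA, the step Tfam belongs to, rose with 915 in scramble cells at 11 of 16, and none fell (median 0.35). Lonp1, the protease that degrades Tfam among other matrix proteins, rose by 0.53 (SE 0.046). Polrmt, the mitochondrial RNA polymerase, rose by 0.45 (SE 0.072) and Lrpprc, which stabilises mitochondrial mRNAs, by 0.39 (SE 0.053). In knockdown cells 4 of 16 rose with 915 (median 0.17), with Lonp1 at 0.55 (SE 0.046) and Polrmt at 0.31 (SE 0.073). The knockdown lowered 2 of 16 in vehicle, Lrpprc at -0.65 (SE 0.054) and Lonp1 at -0.37 (SE 0.046), near the 12.7% of all genes that fell. Under 915 it lowered 9 of 16, where 17.7% of all genes fell.

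Of 12 mRNAs encoded in mitochondrial DNA, 11 fell and none rose with knockdown in vehicle (median -0.48), for example Mt-cytb by -0.61 (SE 0.069). With 915, 10 of 12 rose in scramble cells (median 0.32) and 8 of 12 in knockdown cells (median 0.30), and none fell. Mt-cytb rose by 0.37 (SE 0.069) and 0.35 (SE 0.069). Another list held 11 rows of genes for heme synthesis, electron transport, ATP synthase and mitochondrial import that NRF1 and GABP are known to drive. Of these, 9 rose with 915 in scramble cells (median 0.32) and 4 in knockdown cells (median 0.15). Tomm70a of the import machinery rose by 0.48 (SE 0.062) in scramble cells, and its 915 effect was lower by -0.33 (SE 0.088, adjusted p = 0.0374) in knockdown cells. Alas1, the first enzyme of heme synthesis, rose by 0.29 (SE 0.051) with 915 and changed by -0.55 (SE 0.052) with knockdown. Cycs, cytochrome c, stands under 2 rat gene IDs that may share reads, so its split is uncertain: with knockdown they changed by -1.27 and -1.34.

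Of 11 genes of mitochondrial fusion and fission, 6 fell and none rose with knockdown in vehicle (median -0.34). Mtfp1, a fission factor, changed by -1.67 (SE 0.13) and the fusion GTPase gene Mfn1 by -0.55 (SE 0.052). With 915, Mtfp1 rose by 1.05 (SE 0.12) in scramble and by 0.89 (SE 0.13) in knockdown cells. Of 13 genes of corepressor complexes 3 rose and 2 fell with 915 in scramble cells. Of 19 other coactivators and PGC-1 modifiers, 4 rose and 3 fell with 915 in scramble cells (median 0.05). Of all genes 21.5% rose and 20.6% fell there, so neither of these lists stood out. Prkaa1, an AMP-activated kinase subunit, changed by -0.34 (SE 0.066). The knockdown in vehicle lowered 4 of these 19, among them the kinase subunit gene Prkaa2 at -0.39 (SE 0.069), and raised 2.

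**Figure D3:**
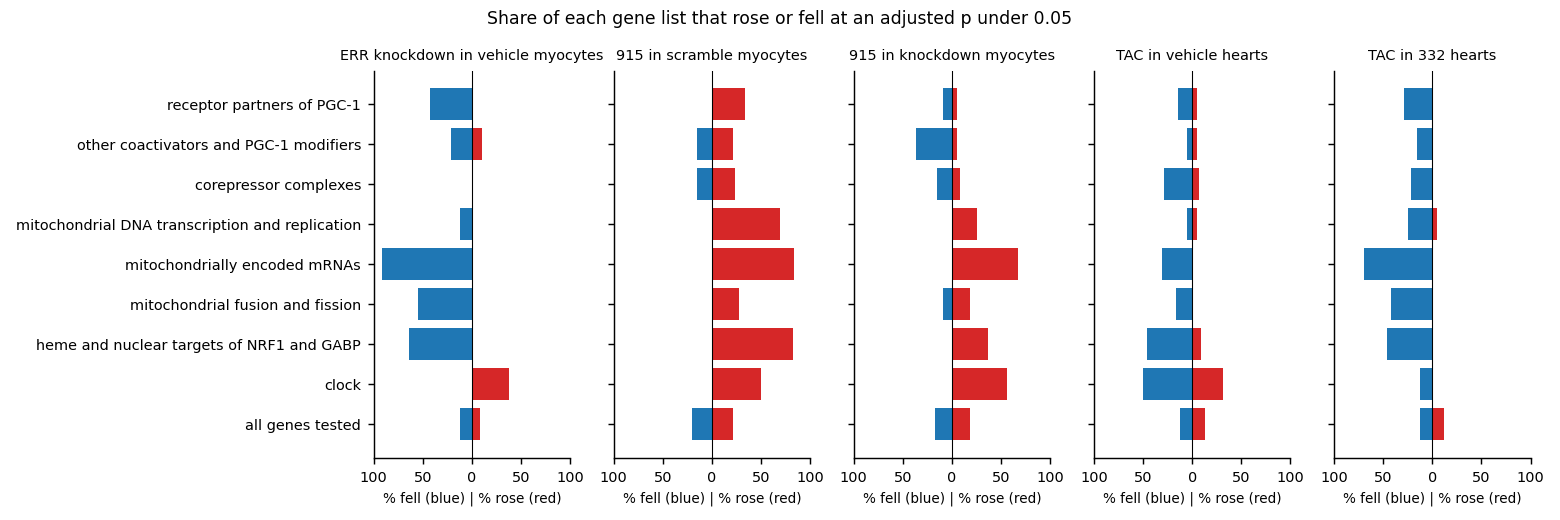
Bars give the percent of each gene list, and of all genes tested, that rose (red, right) or fell (blue, left) at an adjusted p under 0.05 in 5 comparisons. Mitochondrially encoded mRNAs fell at 11 of 12 with knockdown and rose at 10 of 12 with 915 in scramble cells, and the bottom bar gives the share of all genes.

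Markers of other cell types moved in the same rat libraries. Summed cardiomyocyte markers (7 genes) were 8779 to 9684.5 CPM in scramble vehicle cells, 6770.4 to 7106 CPM in knockdown vehicle cells and 9459 to 10292.3 CPM in scramble cells with 915. Summed fibroblast markers (8 genes) were 13719.8 to 14768.1 CPM in scramble vehicle cells and 7580.1 to 8343 CPM with 915 in scramble cells. The sums are of different genes, so their sizes are not compared between cell types. With 915 in scramble cells 5 of 8 fibroblast markers fell and 1 rose, and 5 of 6 smooth muscle and pericyte markers fell, led by Myh11 at -1.96 (SE 0.11). With knockdown in vehicle 4 of 7 cardiomyocyte markers fell and 1 rose (median -0.69). Under 915, where the knockdown lowered Perm1, Ppargc1b and Tfam, 7 of 7 cardiomyocyte markers fell (median -1.21), and their sum in knockdown cells was 5022.9 to 6272.9 CPM. In that comparison 4 of 5 macrophage and leukocyte markers and 4 of 8 fibroblast markers rose, and none of either list fell. The part of these shifts in the results for the 9 genes was not tested, and in bulk RNA fewer cells of a type cannot be told apart from less RNA per cell.

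**Figure D4:**
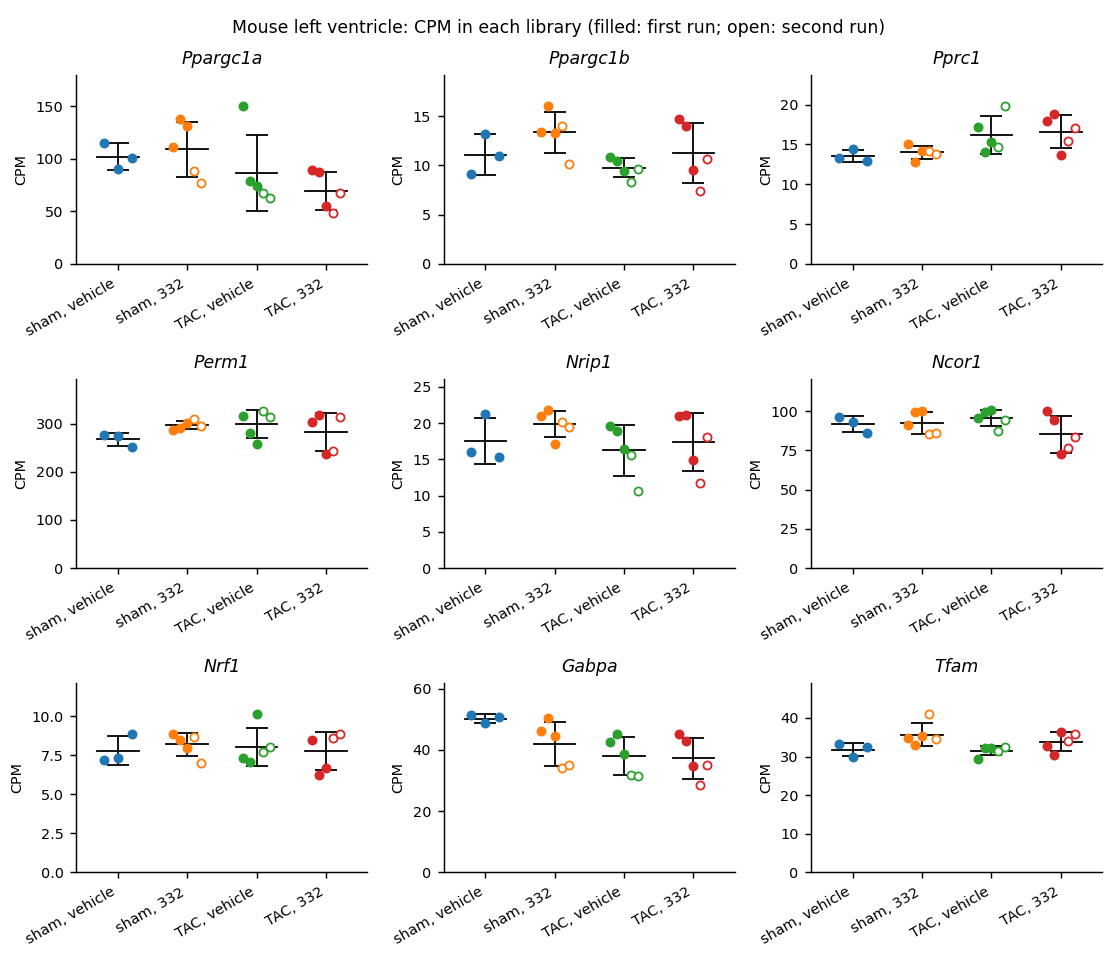
Mouse left ventricle: each point is 1 library, filled for the first run and open for the second, the y axis is CPM from 0, and black bars give the mean and SD. Perm1 keeps between 237 and 326 CPM in all 18 hearts, and the open points of Gabpa lie at 28.6 to 35.1 CPM, at the low end of all 18 hearts.

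In mouse hearts with 6 weeks of treatment after surgery, few of the 9 genes were called. TAC lowered 1 of the 9 in vehicle hearts, Gabpa, and raised none, where 12.8% of all genes fell and 13.5% rose. The median of the 9 genes was -0.009, beside -0.005 for all 14047 genes. In 332 hearts TAC lowered 1 of the 9, Ppargc1a, and raised none, where 12.1% of all genes fell and 11.8% rose. The median there was -0.115, beside 0.001 for all genes. These shares lie near those of all genes tested.

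Gabpa stood at 51.3, 48.7 and 50.6 CPM in sham vehicle hearts and at 42.7, 45.3, 38.7, 31.8 and 31.4 CPM in TAC vehicle hearts, which did not overlap. With 332 it stood at 46.2, 50.4, 44.7, 34.0 and 35.1 CPM in sham and at 45.0, 43.0, 34.9, 28.6 and 34.9 CPM in TAC hearts. TAC changed Gabpa by -0.25 (SE 0.084, adjusted p = 0.0315) in vehicle hearts, and the value in 332 hearts was -0.17 (SE 0.072, adjusted p = 0.091). The 6 libraries of the second run lay at 28.6 to 35.1 CPM and the 12 of the first at 34.9 to 51.3 CPM. In the first run alone the change was -0.24 (adjusted p = 0.0736), and without a run term it was -0.403 (adjusted p = 0.0694). The call was also lost without replicate 1 or 3 of the sham vehicle hearts or without replicate 3 of the TAC vehicle hearts (adjusted p = 0.0857, 0.0812 and 0.0791). Clock genes moved with this comparison: 13 of 16 were called, and their first principal component was 1.57 to 2.94 in sham vehicle hearts and -5.11 to -1.33 in TAC vehicle hearts. With that score in the fit the change of Gabpa was -0.178 (adjusted p = 0.769), so that clock state and TAC cannot be told apart in vehicle hearts.

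Ppargc1a stood at 115, 89.8 and 101 CPM in sham vehicle hearts and at 150, 79.1, 73.9, 67.3 and 62.5 CPM in TAC vehicle hearts. With 332 it stood at 111, 138, 131, 88.4 and 77.1 CPM in sham hearts and at 89.1, 87.2, 55.2, 48.0 and 67.0 CPM in TAC hearts. The first TAC vehicle heart was higher than all 17 others. Apart from that heart, the TAC vehicle hearts, at 62.5 to 79.1 CPM, lay below all sham vehicle hearts, at 89.8 to 115 CPM. All sham vehicle hearts belonged to the first run. The second run held 48.0 to 88.4 CPM and the first 55.2 to 150 CPM, and sham and TAC hearts overlapped with vehicle and with 332. TAC changed Ppargc1a by -0.64 (SE 0.19, adjusted p = 0.0264) in 332 hearts, and the value in vehicle hearts was -0.04 (SE 0.23, adjusted p = 0.911). The vehicle value includes the high first TAC vehicle heart. In the first run alone the change in 332 hearts was -0.704 (adjusted p = 0.167), and without a run term it was -0.653 (adjusted p = 0.0774). In that run the sham 332 hearts were in lane 3 and the TAC 332 hearts in lane 4, so lane and TAC cannot be told apart there. The call in 332 hearts was lost in 5 of the 10 fits without 1 heart, those without replicate 2, 3 or 4 of the sham 332 hearts or replicate 3 or 4 of the TAC 332 hearts, at adjusted p = 0.0551 to 0.0695. The difference of the TAC effects in 332 and vehicle hearts equals that of the 332 effects given below.

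The agonist 332 changed none of the 9 genes in TAC hearts or in sham hearts by edgeR, nor by DESeq2, and no difference of its effects was called. In TAC hearts 0.135% of all genes rose and 0.292% fell, and in sham hearts 0.00712% rose and 0% fell. For the difference of the 332 effects these shares were 0.0214% higher and 0.0427% lower. At an unadjusted p under 0.05 there was 1 gene of the 9 in each comparison. In TAC hearts it was Ncor1 at -0.16 (SE 0.069, adjusted p = 0.318), in sham hearts Ppargc1b at 0.39 (SE 0.16, adjusted p = 0.979), and for the difference Ncor1 at -0.23 (SE 0.11, adjusted p = 0.493). The medians of the 9 genes were -0.024 in TAC hearts, 0.127 in sham hearts and -0.194 for the difference, beside 0.009, 0.007 and 0.004 for all genes. For Ppargc1a the 332 effect was -0.30 (SE 0.19, adjusted p = 0.546) in TAC hearts and 0.29 (SE 0.23) in sham hearts, and the difference of effects was -0.59 (SE 0.30, adjusted p = 0.538). Without the filter on low counts the first of these was called (-0.308, adjusted p = 0.00427), as was the difference of effects (-0.599, adjusted p = 8.73e-05).

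Perm1 stood at 276, 274 and 252 CPM in sham vehicle hearts and at 287, 291, 302, 309 and 296 CPM in sham 332 hearts, which did not overlap. The fitted effect of 0.13 (SE 0.099) did not pass the test, and the lane and the 332 treatment cannot be told apart for the first 3 sham 332 hearts. In TAC hearts Perm1 stood at 317, 281, 257, 326 and 314 CPM with vehicle and at 303, 319, 237, 244 and 315 CPM with 332, an effect of -0.08 (SE 0.082, adjusted p = 0.769). Tfam lay between 29.4 and 40.9 CPM in the 18 hearts and Nrf1 between 6.24 and 10.1 CPM, and neither passed a test. Ppargc1b lay between 7.42 and 16.0 CPM, Nrip1 between 10.7 and 21.8 CPM and Ncor1 between 72.5 and 101 CPM. Pprc1 lay between 12.8 and 19.8 CPM, with a TAC effect of 0.25 (SE 0.12, adjusted p = 0.143) in vehicle and 0.25 (SE 0.10, adjusted p = 0.0784) in 332 hearts.

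Other lists were also counted after TAC, where 12.8% of all genes fell in vehicle and 12.1% in 332 hearts. No gene of the lists in this paragraph was called for the difference of the TAC effects between 332 and vehicle hearts. The counts in vehicle and in 332 hearts are therefore not compared, and they rest on 3 and 5 sham hearts. For the 332 hearts of the first run, lane and TAC cannot be told apart. Of 13 mitochondrially encoded mRNAs 4 fell in vehicle hearts (median -0.20) and 9 in 332 hearts (median -0.36), and none rose. Of 11 heme and NRF1 or GABP target genes 5 fell in each comparison and 1 rose in vehicle hearts. Among those that fell was Cox4i1, a subunit of cytochrome c oxidase, at -0.46 (SE 0.085) in vehicle and -0.32 (SE 0.071) in 332 hearts. Of 21 partners of PGC-1, 3 fell and 1 rose in vehicle hearts, and 6 fell in 332 hearts. Mef2a, a muscle transcription factor, changed by -0.34 (SE 0.096) and -0.59 (SE 0.081). Of 20 genes for mitochondrial DNA transcription and replication 1 fell and 1 rose in vehicle hearts, and 5 fell and 1 rose in 332 hearts. Mgme1, a mitochondrial exonuclease, changed by -0.73 (SE 0.096) in 332 hearts. Fusion and fission genes fell at 2 of 12 and 5 of 12. Of 14 corepressor complex genes 4 fell and 1 rose in vehicle hearts and 3 fell in 332 hearts, with Hdac5 at -0.39 (SE 0.087) and -0.40 (SE 0.073). Of 19 other coactivators and PGC-1 modifiers 1 fell and 1 rose in vehicle hearts (median 0.02), and 3 fell in 332 hearts (median -0.10). Cardiomyocyte markers fell at 5 of 8 and 6 of 8 (2 and 1 rose), and fibroblast markers rose at 7 of 8 and 6 of 8. The summed fibroblast markers were 540.2 to 630.3 CPM in sham vehicle and 1180 to 2104 CPM in TAC vehicle hearts, and their part in these results was not tested.

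The mouse tables also divide each gene among its transcripts. Shares below are of a gene's estimated counts, and they are described without a test because reads shared by overlapping transcripts are divided by Salmon's model. Perm1 is represented by 1 transcript, Perm1-201. Ppargc1a-203 (6464 bases, protein coding) held 84.9% of the Ppargc1a counts on average, and 75.9% to 100.0% in single hearts. Its mean was 88.4% ± 3.6 (SD, n = 3) in sham vehicle and 79.6% ± 5.0 (SD, n = 5) in TAC vehicle hearts, and 83.4% ± 1.2 and 89.5% ± 7.6 (SD, n = 5) in sham and TAC hearts with 332. Ppargc1a-201, annotated as a nonsense-mediated decay transcript, held 11.7% ± 3.2 in TAC vehicle hearts and 4.26% ± 4.1 to 7.51% ± 6.6 in the other groups, and the ranges overlapped. Tfam-201 (4167 bases) held 67.8% to 69.9% on average in the 4 groups. The short Tfam-202 (779 bases) was listed at 0 in every sham 332 and TAC vehicle heart, and reached 19.0% in 1 sham vehicle heart and 34.5% in TAC 332 hearts. Gabpa-201 held 76.4% to 87.1% in TAC vehicle hearts and 89.8% to 92.2% in sham vehicle hearts, without overlap. With 332 it held 74.4% to 91.6% in sham and 83.5% to 90.1% in TAC hearts, which overlapped. All sham vehicle hearts belonged to the first run. Ncor1, with 25 transcripts, was led by Ncor1-213 at 35.0% to 39.2% of its counts, and Pprc1-203 ranged from 48.2% to 97.8% between hearts.

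**Figure D5:**
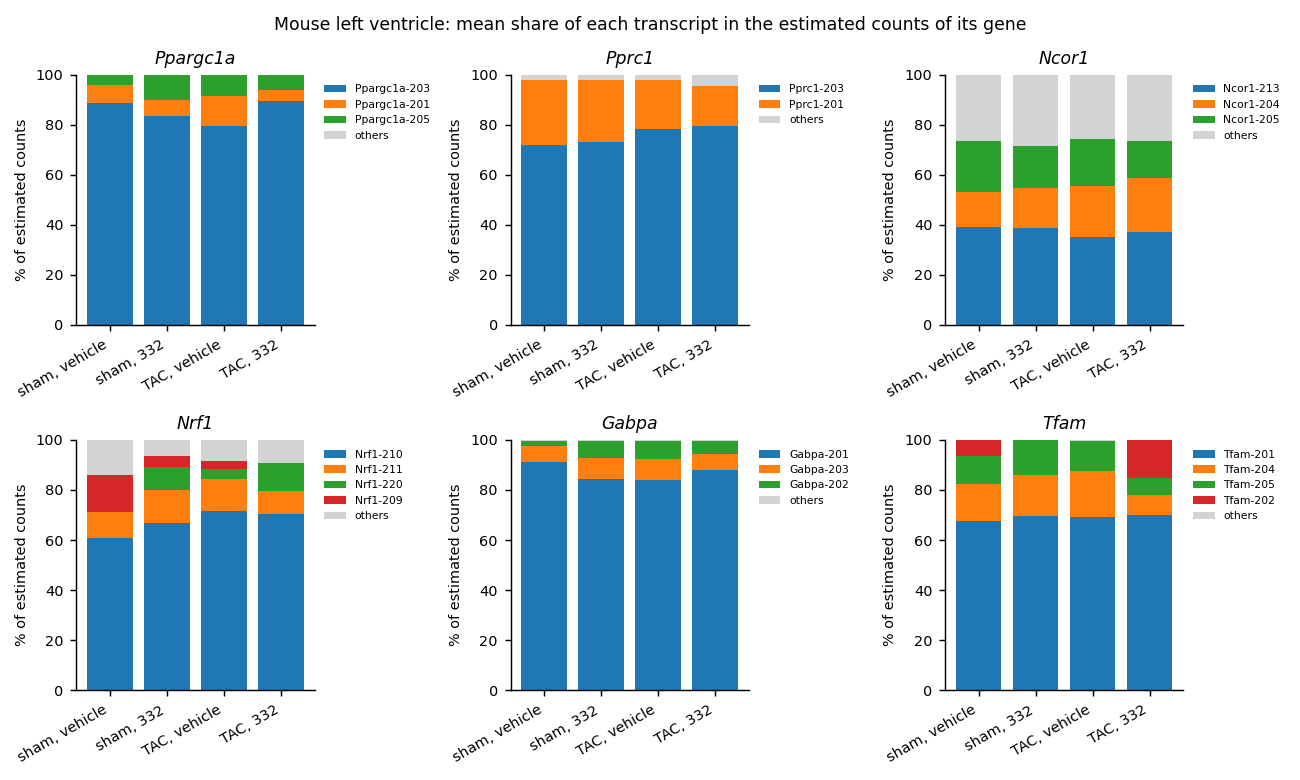
Mean share of each transcript in the estimated counts of its gene, in percent, for 6 of the 9 genes in the 4 mouse groups; transcripts averaging under 5% are pooled in grey. One transcript leads Ppargc1a, Pprc1, Nrf1, Gabpa and Tfam in every group, while Ncor1 is spread over several.

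Genes with patterns most like Perm1, Ppargc1b and Ppargc1a were listed by Pearson r of log2 CPM among tested genes averaging 5 CPM or more. Over the 12 rat libraries, which form 4 groups, those nearest to Perm1 were Dlst (r = 0.998), Idh2 (r = 0.998), Tmem179 (r = 0.997), Cycs (r = 0.997) and Slc25a3 (r = 0.995). Dlst and Idh2 encode enzymes of the TCA cycle and mitochondrial NADPH supply, and Slc25a3 the mitochondrial phosphate carrier. Among the nearest to Ppargc1b were Gmpr (r = 0.989), Abcf1, Mybpc3 and Akap1 (r = 0.984), of which Mybpc3 encodes a sarcomere protein. Nearest to Ppargc1a were Smek1 (r = 0.891), Dnase1l1, Pkia, Zswim3 and Abhd17b (r = 0.823). Between the 9 genes themselves, Perm1 and Ppargc1b had the highest r in rat cells, 0.952. Over the 18 mouse hearts, which share runs as well as groups, Perm1 was nearest to Dnajb5 (r = 0.834), Asb2, Lynx1, Kmt2d and Numa1. Ppargc1a was nearest to Stat5b (r = 0.933), Foxn3, Fry, Sar1a and Zbtb10, and Ppargc1b to Cluh (r = 0.850), Oxsm, Nceh1, Alkbh5 and Pde3a. Among the 9 genes the highest r in hearts were those of Gabpa with Ppargc1a, 0.783, and of Ppargc1b with Nrip1, 0.767. These r describe shared groups, depth and run as well as the genes.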

How the data were processed

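Rat genes were read from the deposited count table, whose values are whole counts per gene per the file headers; its FPKM values and log2 fold changes with p-values are the authors'. Mouse genes were summed from deposited tables of estimated counts and TPM per transcript, and rounded (3.82% of sums were not whole within 0.005). Per the submitters' processing notes, the rat files were made on rn6 with DESeq2 1.20.0, featureCounts 1.5.0-p3, HISAT2 2.0.5 and StringTie 1.3.3b, and the mouse files with fastp, Salmon and DESeq2. The mouse build is not given in the sources used here, and the rat libraries are unstranded per the labels' protocols, so overlapping antisense reads cannot be told apart.

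Counts were fitted in R 4.3.3 with edgeR 4.0.16 (filterByExpr, minimum count 10; TMM factors 0.954 to 1.06 in rat and 0.884 to 1.15 in mouse; robust quasi-likelihood F-test). The 12 rat libraries entered 1 fit by group and the 18 mouse libraries 1 fit by group and run; 15181 and 14047 genes were tested, and 9390 rat and 28190 mouse genes had no count. Differences of effects are contrasts in these fits. Any 2 libraries of a group differed by more than counting noise (chi-square per gene of at least 4.07). The comparisons with vehicle groups share those libraries. The members and lists were chosen with earlier results of these data known; named genes are the 9 members, up to 3 called genes of smallest adjusted p from each list with at least 2 called, the 3 ERR genes, and the 5 most correlated genes; some genes that this rule names are not reported here. The clock score, an added covariate in 1 alternative, is principal component 1 of the log2 CPM of the clock genes after centring within each run; DESeq2 1.42.0, RLE factors, other filters, each library left out, the replicate block and other run terms were tried. The fits were tested on simulated data.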

Additional observations from a re-analysis of the deposited data

Results flagged for a closer look

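The 915 effect differed between knockdown and scramble myocytes, by a contrast in the edgeR fit, for 2 of the 9 genes and for 8 genes of the other lists. All but 1 of these were lower in knockdown cells. The log2 differences were -0.952 for Perm1, -0.602 for Ppargc1b, -0.881 for the targeted receptor gene Esrrg, -0.374 for the kinase subunit gene Prkaa2, -0.338 for Lrpprc, -0.496 for the sarcomere gene Actn2, -0.523 for Pln (phospholamban, the inhibitor of the calcium pump), -0.31 for Cycs and -0.327 for Tomm70a. For Cnn1, a smooth muscle calponin, the difference was 0.347, as 915 changed it by -1.18 (SE 0.064) in scramble and by -0.84 (SE 0.063) in knockdown cells. Prkaa2, Lrpprc and Cnn1 were chosen for this comparison after their values were seen, so that all 8 are named. In these comparisons 915 moved Actn2 by -0.26 (SE 0.055) in scramble and by -0.76 (SE 0.055) in knockdown cells. In hearts 1 gene of the other lists differed in its 332 effect, TAC minus sham: Clock, a core circadian factor, at -0.922 (SE 0.17, adjusted p = 0.0438 by edgeR's contrast). It too was named after its value was seen, and its 332 effect passed the test neither in TAC hearts (-0.46) nor in sham hearts (0.47). Its call for the difference was lost without a run term, with the clock score and in several fits without 1 library, where no gene was called.

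One library stood apart from the others of its group. Ppargc1a in the first TAC vehicle heart was at 150 CPM, and its gap to the next heart was 0.81 of the range of the 5 hearts, above Dixon's 95% critical value. Over the 27 such groups of 5 tested, chance flags about 1 in 20.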

How the results depend on the processing

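No called value changed sign. Of the single-gene values under the alternatives, 1436 kept their side of the threshold, of which 84, none of them called, changed sign; 22 lost and 9 gained a call. Counts of genes called for 332 were low and moved: in TAC hearts 60 became 671 with no filter, 183 by DESeq2, 13 without a run term, 10 in the first run, 0 with the clock score and 30 with only the groups compared, and 22 to 94 without 1 library. In sham hearts 1 became 191 with no filter, 5 by DESeq2, 0 without a run term, 12 in the first run and 28 with only the groups compared, and 0 to 2 without 1 library. For the difference of 332 effects 9 became 521 with no filter, 15 at a minimum count of 50, 87 by DESeq2, 0 without a run term, 5 in the first run and 0 with the clock score, and 0 to 25 without 1 library. With no filter 1 of the 9 genes was called for 332 in TAC hearts and 1 for the difference. For TAC in vehicle hearts the clock score left 47 of 3703 genes, leaving out 1 library gave 2437 to 3747, and 0 of the 9 genes were called with no filter, no run term, the first run or the clock score (0 to 1 without 1 library). For TAC in 332 hearts 3349 became 2208 without a run term and 1662 in the first run, with 0 of the 9 genes in either, and 0 to 2 of the 9 without 1 library. Leaving out 1 library gave 1 to 3 of the 9 for 915 in knockdown cells, and 1 to 2 of the 9 and 259 to 677 genes for the difference of 915 effects (566 with all). The cause was not tested.

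With the replicate block the difference of 915 effects had 542 genes called in place of 566 and 332 in TAC hearts 40 in place of 60, and the count among the 9 genes changed in no comparison. Deviations of same-numbered rat libraries had r of -0.053 to 0.04. In mouse r was -0.081 to 0.334 (mean 0.113, 13 of 24 pairs over 0.1), against a mean of -0.028 (19 of 96) for other numbers, and same-numbered hearts always share a run. Since not every pair was over 0.1, the numbers were not taken to pair libraries. Depth limits the low mouse genes most, such as Nrf1 at 6.24 to 10.1 CPM.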
